A study of Mus musculus with 2 samples.

Results

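B cells made up 346 of 9596 kept cells in a gingival sort from mice with 10% Tet2-/- bone marrow transplantation (BMT) and 521 of 11672 in one from mice with 10% Tet2+/+ BMT, or 867 of 21268 in all. A barcode was kept at 500 or more unique molecular identifiers (UMIs), 250 or more genes and at most 10% mitochondrial UMIs. It counted as a B cell with at least 4 UMIs of Cd79a, Cd79b and Ms4a1 together, at most 1 UMI of the T cell genes Cd3e, Cd3d and Cd3g, under 0.4% of UMIs from C1qa, C1qb and C1qc, and under 5% from S100a8 and S100a9. The cells were thus chosen by the measured UMIs of those genes, whose levels describe the gate. The share was 3.61% (95% interval 3.24 to 3.998) against 4.46% (4.10 to 4.85) of kept cells. The difference was -0.86 percentage points (Newcombe interval -1.39 to -0.33), and with a mitochondrial limit of 5% in place of 10% it was -0.18. That limit left 194 of the 346 and 252 of the 521 B cells, among 9029 and 10828 kept cells.

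At 12 weeks after transplantation the mice of both groups received ligatures for 5 days, a model of periodontitis in which a tied tooth collects bacteria and the gum becomes inflamed. The gingiva was then sorted, per the labels, for CD45.2+CD11b+ cells in the 10% Tet2-/- BMT group and for CD45+CD11b+ cells in the 10% Tet2+/+ BMT group, although the title of the second sample also names CD45.2. The labels do not state the number or sex of the animals, whether they were pooled, or what the 10% is a share of. The Tet2 protein converts 5-methylcytosine to oxidised forms, a step towards DNA demethylation. With 1 library per group there is no spread over animals to compare with, so values describe these 2 libraries and carry no test. Intervals are at 95%, exact except for the Newcombe intervals of differences between shares. Where a count is 0, the share it allows is that of 3 counts. All of these cover counting error only.

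B cells recognise antigen through a membrane immunoglobulin, which signals through the paired chains Cd79a and Cd79b. Naive B cells carry IgM and IgD, and after activation some switch to IgG or IgA or become plasma cells, which secrete antibody. Conventional B cells do not carry CD11b, the integrin alpha chain encoded by Itgam, whereas B-1 cells and some memory B cells can. In periodontitis, B and plasma cells gather in the inflamed gum.

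The promoters of 3 B cell genes are shown because the results turn on them: Cd79a defines the gate, Vpreb3 marks the lineage and its young cells, and Cr2 was lower in the 10% Tet2-/- library in both cell sets compared below. The sequences are from RefSeq on GRCm38.p6, with 250 bases before to 50 after the start, 5′ to 3′ on the strand of the gene. Capitals mark an octamer, the motif bound by POU factors of B cells. The windows are chr7:24897247-24897546 (plus strand) for Cd79a, chr10:75948050-75948349 (plus strand) for Vpreb3 and chr1:195176670-195176969 (minus strand) for Cr2.
Cd79a: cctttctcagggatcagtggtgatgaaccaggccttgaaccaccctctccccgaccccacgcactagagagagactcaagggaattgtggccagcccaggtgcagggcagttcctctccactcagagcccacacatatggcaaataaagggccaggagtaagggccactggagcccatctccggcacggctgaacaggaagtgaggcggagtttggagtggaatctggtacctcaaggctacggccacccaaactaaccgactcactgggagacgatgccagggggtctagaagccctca
Vpreb3: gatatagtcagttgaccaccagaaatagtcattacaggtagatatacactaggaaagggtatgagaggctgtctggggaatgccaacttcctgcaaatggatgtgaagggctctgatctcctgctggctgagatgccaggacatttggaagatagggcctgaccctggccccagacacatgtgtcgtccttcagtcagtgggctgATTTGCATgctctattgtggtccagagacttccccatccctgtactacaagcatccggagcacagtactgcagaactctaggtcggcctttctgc
Cr2: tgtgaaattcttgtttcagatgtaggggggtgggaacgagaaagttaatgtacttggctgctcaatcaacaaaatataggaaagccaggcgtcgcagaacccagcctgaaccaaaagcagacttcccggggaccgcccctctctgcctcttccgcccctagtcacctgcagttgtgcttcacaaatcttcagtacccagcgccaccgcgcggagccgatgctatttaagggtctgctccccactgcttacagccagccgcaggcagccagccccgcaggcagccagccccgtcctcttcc
The octamer ATGCAAAT, searched on both strands, lies at position 206 of the Vpreb3 window, and 1.74% of 32851 RefSeq promoters of the same length hold it. Of the 20 genes with the highest fold in the gated cells over all other kept cells, 10 had a promoter in the table, and 0 of the 10 held the octamer, the longer EBF1 palindrome (0.904% of all promoters) or the PU.1 site GAGGAAGT (3.2%). The shorter EBF core CCCNNGGG, which the palindrome contains, was in 2 of the 10, those of Bank1 and H2-DMb2, and in 13.7% of all promoters. A match is a match of letters only.

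The gated cells carried the B cell program beyond the 3 genes of the gate. Ebf1, the factor that commits progenitors to the lineage, stood at 892 CPM (UMIs of a gene scaled to one common total for the summed cells) in the 10% Tet2-/- library and 1202 CPM in the 10% Tet2+/+ library, and at 16.1 and 25.1 CPM in all other kept cells. Ighd, the heavy chain of IgD, stood at 460 and 529 CPM against 9.58 and 13.2 CPM. Vpreb3, a chaperone of immature light chains, stood at 176 and 226 CPM against 2.33 and 3.50 CPM. All of these B cell markers were therefore far above the rest of the sort in both libraries. The 20 genes of highest fold also held Ly6d, Fcmr (the receptor for IgM), Fcer2a (CD23), Bank1, Mzb1 and the class II genes H2-Ob and H2-DMb2. Since B cells were removed from the comparison cells by the same gate, these contrasts describe the gate.

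Few cells lay near the threshold. The median cell held 24 and 23 UMIs of the 3 gate genes, 4 and 5 cells held exactly 4, and 16 and 32 kept cells held 3 and stayed outside. Of 490 and 716 kept cells with 4 or more gate UMIs, 52 and 62 were removed for Cd3 UMIs, 41 and 40 for C1q genes and 62 and 102 for S100a8 and S100a9, with overlaps. The gated cells held 3342933 and 4102087 UMIs, with a median of 5846 and 5269 per cell. Their median mitochondrial share of 4.71% and 5.10% was far above the 0.823% and 0.933% of all kept cells. No doublet was removed. The libraries shared 31 barcodes among kept cells and 0 among B cells.

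Many gated cells carried either many UMIs or transcripts that mark another cell type. The marker lists for 13 other cell types, 90 genes without S100a8 and S100a9, took a median of 0.268% and 0.262% of the UMIs of a gated cell. Cells with at least 20 UMIs of the macrophage list numbered 73 (21.1%) in the 10% Tet2-/- library and 76 (14.6%) in the 10% Tet2+/+ library. For the neutrophil list they numbered 55 (15.9%) and 78 (15.0%), and for the monocyte list 41 (11.8%) and 36 (6.91%). The macrophage and neutrophil lists thus reached 20 UMIs in the most cells. A cut of 20 UMIs depends on depth. By level, the macrophage list summed to 1699 against 1809 CPM, the neutrophil list to 1393 against 1244 CPM and the monocyte list to 1111 against 697 CPM. Fewer cells reached 20 UMIs of the NK and ILC list (11 and 9), the dendritic cell list (10 and 8) or the immature neutrophil list (6 and 4). Erythroid markers reached it in 10 and 3 cells but summed to 20653 against 5811 CPM. T cell markers reached it in 0 cells of either library, as the gate on Cd3 fixes in part.

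A narrow set was therefore formed after these values were seen, of cells under 8000 UMIs with under 0.3% of UMIs from the other-lineage lists. It held 154 cells (44.5% of the gated cells, interval 39.2 to 49.9) in the 10% Tet2-/- library and 242 (46.4%, 42.1 to 50.8) in the 10% Tet2+/+ library. The median cell held 4268 and 4372 UMIs inside the narrow set and 11369 and 8912 outside it. As the choice of cells fixes, sums of other-lineage lists were low there, and the dendritic cell list summed to 11.6 and 11.0 CPM, the NK and ILC list to 2.89 and 8.25 CPM, and the erythroid list to 43.3 and 34.8 CPM. Mast cell and basophil markers were at 0. B cell markers were higher there, which the choice of cells also fixes in part. Ebf1, outside the gate, stood at 1710 and 1942 CPM in the narrow set against 892 and 1202 CPM in all gated cells. The gate gene Cd79a stood at 3509 and 3347 CPM against 1768 and 2029 CPM. The libraries lay close together in the narrow set for Ighm (2052 and 2032 CPM) and Igkc (7960 and 7913 CPM). The ratio of 10% Tet2-/- over 10% Tet2+/+ there was 0.88 (0.82 to 0.95) for Ebf1. For Cd79a it was 1.05 (1.00 to 1.10), a value that describes gated cells only.

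**Figure D1:**
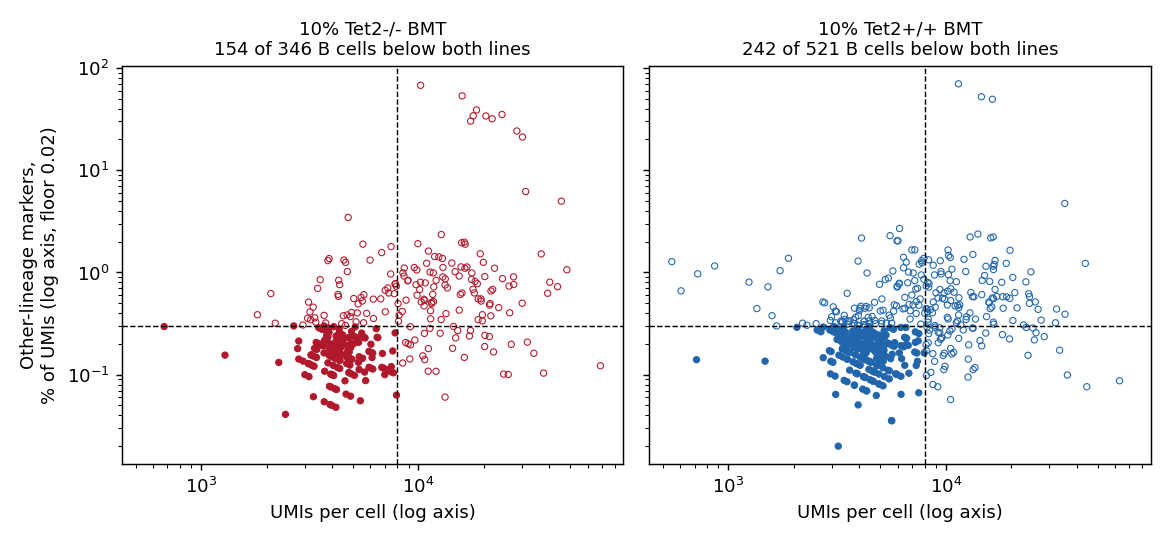
Each point is 1 gated B cell, with its UMIs on the x axis and the share of its UMIs from the 90 markers of other cell types on the y axis, both on log scales. Filled points are the narrow set, 154 of 346 and 242 of 521 cells. Cells with many UMIs also tend to hold more of the other markers, and the few cells at the top come from both libraries.

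Xist and the Y-linked genes gave a second measure of mixed barcodes, from genes in none of the lists. In the 10% Tet2-/- library 227 of 346 gated cells held Xist UMIs alone, 31 held UMIs of Ddx3y, Eif2s3y, Kdm5d or Uty alone, 43 held both and 45 held neither. The 43 cells with both had a median of 14355 UMIs, against 5713 in those with Xist alone. Of cells with both kinds, 1 lay among the 154 cells of the narrow set (0.649%, interval 0.0164 to 3.56) and 42 among the 192 cells outside it (21.9%, 16.2 to 28.4). Cells with both kinds were thus nearly all outside the narrow set, where 123 cells held Xist alone. The narrow set leaves out all cells at 8000 UMIs or more, and the part of depth was not tested. In the 10% Tet2+/+ library no gated cell held an Xist UMI (0 of 521, which allows a share of up to 0.576%), and 351 held Y-linked UMIs.

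The same genes give a level of Y-linked transcripts for the B cells of the 10% Tet2-/- library. Y-linked genes summed to 35.9 CPM there, 18.2% (interval 14.9 to 22.1) of the 197 CPM in the 10% Tet2+/+ library. The narrow set gave 18.2% (11.9 to 27.0). The level was 33.2% (27.2 to 40.2) in T cells, taken by the mirrored gate (141 and 220 cells), and 7.80% (7.04 to 8.62) in the 4448 and 5068 neutrophil-rich cells, those with at least 10% of UMIs from S100a8 and S100a9. The interval of the B cells overlaps neither of the others. In the 10% Tet2-/- library, cells with both Xist and Y-linked UMIs made up 12.4% of B cells, 24.8% of T cells and 1.35% of neutrophil-rich cells. The part of mixed barcodes in these levels was not tested. The labels do not give the sex of donors or recipients.

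Itgam, at chromosome 7 from 128062640 to 128118491 on the plus strand of mm10, encodes CD11b, the protein of the sort. All gated B cells together held 335 Itgam UMIs (100 CPM, interval 89.8 to 112) in the 10% Tet2-/- library and 358 (87.3 CPM, 78.5 to 96.8) in the 10% Tet2+/+ library, against 615 and 587 CPM in neutrophil-rich cells. Itgam followed the other-lineage markers. In cells with under 0.1% of such UMIs it had 0 UMIs in 21 cells of the 10% Tet2-/- library (exact Poisson limit 36.8 CPM) and 2 UMIs in 37 cells of the other (6.13 CPM, 0.742 to 22.1). From 0.1 to 0.2% it was 17.0 and 22.1 CPM, and from 0.2 to 0.3% it was 22.8 and 38.2 CPM. From 0.3 to 0.5% it was 96.7 and 75.4 CPM, from 0.5 to 1% it was 177 and 171 CPM, and at 1% or more it was 153 and 201 CPM. The cells with the fewest markers of other types thus held the least Itgam, in both libraries.

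In the narrow set Itgam had 9 UMIs in 154 cells (13 CPM) and 17 UMIs in 242 cells (15.6 CPM). Barcodes with 1 to 50 UMIs give the profile of free RNA, in which Itgam stood at 286 and 327 CPM. If free RNA supplied all S100a8 and S100a9 of the narrow set, it would make up 2.89% and 3.76% of their UMIs and would supply 8.26 and 12.3 CPM of Itgam. The 13 and 15.6 CPM of the narrow set lie above those values, which assume that none of the S100a8 and S100a9 came from the cells. The source of the Itgam UMIs in the narrow set was not tested. With each cell thinned to 1000 UMIs (1 shallower cell left out per library), 1 of 153 (0.654%) and 2 of 241 (0.830%) narrow cells held an Itgam UMI. Before thinning the shares were 5.84% and 6.61%, against 85.2% and 82.6% of neutrophil-rich cells. Transcript counts do not show whether the protein was on the cells.

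**Figure D2:**
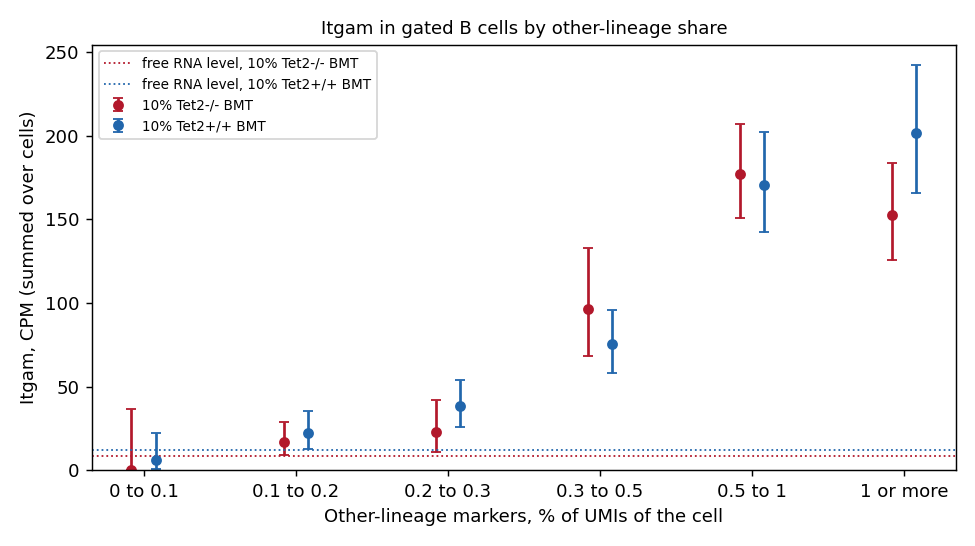
Points give Itgam in CPM, summed over the gated B cells of each library, against the share of UMIs from other-lineage markers, with exact Poisson 95% intervals. Dotted lines mark the level that free RNA would supply in the narrow set if it supplied all S100a8 and S100a9 there, 8.26 and 12.3 CPM. Itgam rises from 0 and 6.13 CPM in the first bin to 153 and 201 CPM in the last.

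Most gated cells were of the mature naive type by their heavy chains. Ighm and Ighd were both detected in 312 of 346 cells (90.2%, 86.5 to 93.1) and in 460 of 521 (88.3%, 85.2 to 90.9). In neutrophil-rich cells, which should lack both, Ighd was in 0.719% and 1.87% of cells (median 5312 and 5111 UMIs, near the 5846 and 5269 of the B cells). Ighm was in 36.6% and 29.3% of neutrophil-rich cells, at 80.0 and 63.7 CPM, so detection of Ighm alone sets B cells apart poorly in this sort, while its level of 1163 and 1665 CPM in the gated cells does so. Fcer2a, which encodes the low-affinity IgE receptor CD23 of follicular B cells, was in 68.2% and 68.9% of B cells and in 0.247% and 0.533% of neutrophil-rich cells.

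B cell precursors were nearly absent. The surrogate light chain, built from Vpreb1, Vpreb2 and Igll1 before a true light chain is made, had 2 or more UMIs in 0 of 346 cells (which allows up to 0.867%) and in 1 of 521 (0.192%, 0.00486 to 1.06). That cell held all 24 Vpreb2 and all 18 Igll1 UMIs of the gated cells of its library. A class set after the cells were seen did not leave out cells with surrogate light chain UMIs. It took in 5 and 6 cells, which held at least 4 Vpreb3 UMIs that made up at least 0.2% of their total. Their Fcer2a count was 0 in both libraries, against 224 and 233 CPM in the other gated cells. Sox4, a factor of progenitors and young B cells, stood at 334 (144 to 659) and 387 CPM in them, from 8 and 14 UMIs, against 5.12 and 8.61 CPM in the others. Myb, a factor of immature haematopoietic cells, stood at 293 and 194 CPM against 7.83 and 4.67. Both Sox4 and Myb were named after their values were seen. Sox4 was in 2 of the 5 and 3 of the 6 cells and Myb in 3 and 2, so these levels rest on very few cells.

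Light chains were mostly kappa. Among cells with 3 or more light chain UMIs, lambda genes (Iglc1, Iglc2 and Iglc3) outnumbered Igkc in 22 of 341 (6.45%, 4.09 to 9.61) in the 10% Tet2-/- library and in 53 of 515 (10.3%, 7.80 to 13.2) in the 10% Tet2+/+ library, a difference of -3.84 percentage points (Newcombe interval -7.47 to 0.0609). Narrow-set shares were 11 of 154 (7.14%, 3.62 to 12.4) and 19 of 242 (7.85%, 4.79 to 12.0). The interval of the difference includes 0, and the gap was smaller in the narrow set. With a mitochondrial limit of 5%, which left 194 and 252 gated cells, the difference was -7.47 points.

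**Figure D3:**
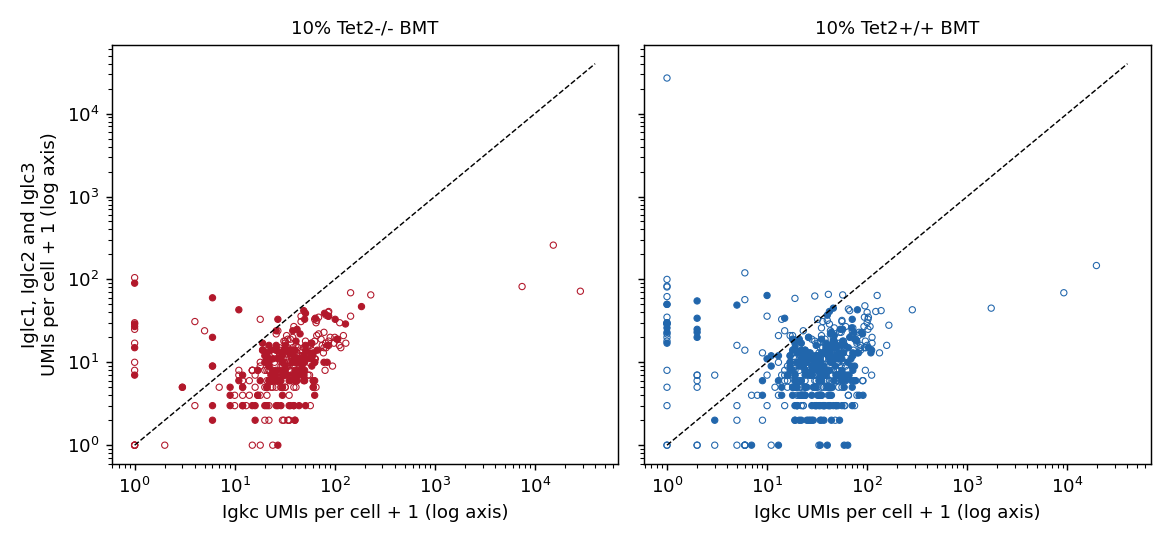
Each point is 1 gated B cell, with Igkc UMIs plus 1 on the x axis and summed Iglc1, Iglc2 and Iglc3 UMIs plus 1 on the y axis, both log scales. Filled points are the narrow set and the dashed line marks equal counts. The cells above the line number 22 of 341 and 53 of 515 among those with 3 or more light chain UMIs, and a few plasma-type cells stand far out, such as the cell with 24914 Iglc1 UMIs.

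A handful of cells held most of the secreted immunoglobulin. Jchain, which joins IgA and IgM into polymers, had 20 or more UMIs in 3 of 346 cells (0.867%, 0.179 to 2.51) and 6 of 521 (1.15%, 0.424 to 2.49), with a median of 40193 and 34324 UMIs per cell. The 5 top cells held 99.7% and 98.3% of all Jchain UMIs of the gated cells. Mzb1, a chaperone of antibody assembly, stood at 996 and 1493 CPM in those cells, and Xbp1, the factor of the secretory program, at 689 and 465 CPM. Such cells were far above the rest in Xbp1, which stood at 110 and 107 CPM in all gated cells. The gate asks for Cd79a, Cd79b or Ms4a1, which plasma cells lose in part, so this is no count of plasma cells in the sort.

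Single cells weighed heavily on the level of several immunoglobulin genes. Ighg2b stood at 2917 CPM in the 10% Tet2-/- library and 53.6 CPM in the 10% Tet2+/+ library, but 9649 of its 9750 UMIs in the former (99.0%) lay in 1 cell. Igkc stood at 19197 against 12233 CPM, with 44.4% and 39.0% of the UMIs in 1 cell. Iglc1 stood at 267 against 6390 CPM, with 24914 of 26214 UMIs (95.04%) in 1 cell of the 10% Tet2+/+ library. Within the narrow set the ratio was 1.01 (0.97 to 1.04) for Igkc and 1.40 (1.22 to 1.61) for Iglc1. Switched cells held 3 or more UMIs of the IgG, IgA and IgE heavy chain genes together, and more of these than of Ighm and Ighd. They numbered 7 of 346 (2.02%, 0.817 to 4.12) and 12 of 521 (2.30%, 1.20 to 3.99). Of these, Igha (IgA) led in 4 and 4, Ighg2b in 3 and 7 and Ighg2c in 0 and 1. Ighg1 had 0 UMIs in the gated cells of both libraries. Switched cells numbered 0 of 154 and 1 of 242 in the narrow set.

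Few gated cells held cycling transcripts. Mki67 and Top2a, markers of cycling cells, together had 2 or more UMIs in 11 (3.18%) and 18 (3.45%), but in 0 of 154 and 4 of 242 cells of the narrow set. So most gated cells with these cycling transcripts lay among the deep or mixed barcodes.

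Tet2, at chromosome 3 from 133463679 to 133545139 on the minus strand, had 215 UMIs (64.3 CPM) in the gated cells of the 10% Tet2-/- library and 208 UMIs (50.7 CPM) in the 10% Tet2+/+ library. The ratio was 1.27 (1.04 to 1.54), and in the narrow set 30 UMIs (43.3 CPM) stood against 31 UMIs (28.4 CPM), with a ratio of 1.52 (0.89 to 2.60). The counts come from the 3' end of transcripts and the deleted part of the gene is not given in the labels, so they do not check the genotype.

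Transplant, the sort gate per the labels and the sex-linked transcripts all differed between the libraries, so their parts cannot be told apart. The comparison between the libraries describes how their B cells differ. It was made on all gated cells and on the narrow set, with CPM of summed UMIs. A gene was called higher or lower when its log2 ratio of 10% Tet2-/- over 10% Tet2+/+, with a pseudocount of 10 CPM, passed 1.5-fold, among genes at 50 CPM in either library and 100 UMIs in both together. Folds printed below carry no pseudocount. Of 2774 such genes 68 were higher (2.45%) and 27 lower (0.973%) in all gated cells. In the narrow set 24 of 2176 were higher (1.1%) and 37 lower (1.7%). Both sets called 1 gene higher, which is 1.47% of the 68 and 4.17% of the 24, and 10 genes lower, which is 37.0% of the 27 and 27.0% of the 37. The 1 gene higher in both was Xist. Of the 10 lower in both, Ddx3y and Eif2s3y are Y-linked, Gm42418 and Gm43305 have no gene name, and the others were Cr2, Zfp36l2, Dynll1, Sh2b3, Pmf1 and Hist1h1d.

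Many of the highest genes of all gated cells are known from other cell types, and for several most UMIs lay in 1 cell. Il12b, a subunit of interleukins 12 and 23 made by dendritic cells, had 432 UMIs (129 CPM) against 5 (1.22 CPM), with 95.8% of the 432 in 1 cell, and had 0 UMIs in the narrow set of both libraries. Slpi, a secreted protease inhibitor, stood at 2426 against 196 CPM, with 91.7% in 1 cell, and at 39.0 against 46.8 CPM in the narrow set. Most UMIs of both genes thus lay in 1 barcode each. Ctsg (cathepsin G) and Mpo (myeloperoxidase), proteins of the primary granules of neutrophil precursors, stood at 197 against 33.4 and 162 against 45.3 CPM, and in the narrow set at 4.33 against 8.25 and 4.33 against 10.1 CPM. Alas2, the haem enzyme of red cell precursors, stood at 53.8 against 11.0 CPM and had 0 UMIs in the narrow set. Mpo and Alas2 are on the other-lineage lists, so the choice of cells fixes in part their low levels there. The monocyte-derived or macrophage gene Retnla stood at 83.5 against 9.51 CPM, and at 7.22 against 8.25 CPM in the narrow set.

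Chemokine genes of dendritic and myeloid cells behaved alike with one exception. Ccl22 stood at 119 against 5.12 CPM and in the narrow set at 2.89 against 1.83 CPM, from 2 UMIs each. It is on the dendritic cell list, so the choice of cells fixes in part its low level there. Cxcl3 stood at 169 against 48.8 CPM, and at 7.22 against 11.9 CPM. Ccl17, a ligand of Ccr4, was at 226 against 49.7 CPM in all gated cells, with 64.9% of the former in 1 cell, and at 50 against 5 UMIs in the narrow set (72.2 against 4.58 CPM, ratio 15.8, 6.32 to 50.6). Without cells that held a Cd3 UMI, however, its log2 ratio in gated cells turned to -0.36, so cells with 1 such UMI carried the higher level. Il1rn, the interleukin-1 receptor antagonist, stood at 222 against 56.1 CPM, with 17 against 14 UMIs in the narrow set. Ccl17 and Il1rn did not have the 100 UMIs needed for a call there. The remaining 2 of the 12 highest, Fabp5 and Ms4a3, stood at 300 against 39.0 and 62.5 against 13.4 CPM in all gated cells and had 6 against 7 and 2 against 1 UMIs in the narrow set.

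**Figure D4:**
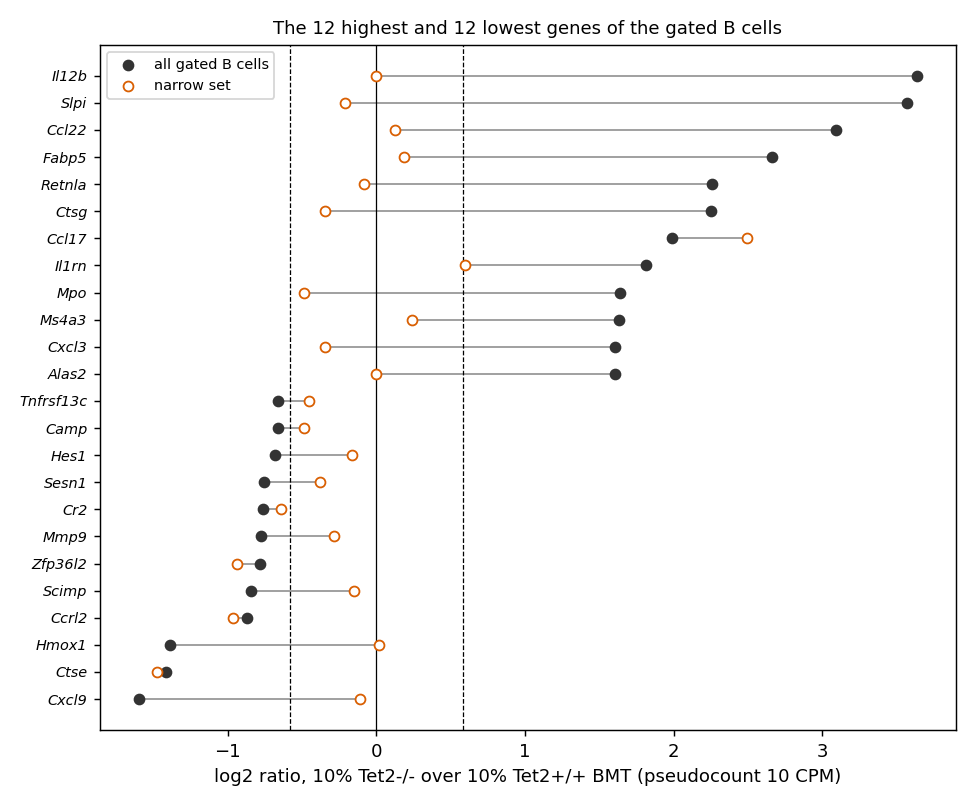
Log2 ratios of 10% Tet2-/- over 10% Tet2+/+ BMT (pseudocount 10 CPM) for the 12 highest and 12 lowest genes of all gated B cells (dark points), with the same genes in the narrow set (open points) and dashed lines at 1.5-fold. Most genes on the right fall to near 0 or below in the narrow set, except Ccl17 and Il1rn, while Ctse, Ccrl2, Zfp36l2 and Cr2 stay beyond the left line. Mpo, Alas2, Ccl22, Camp and Mmp9 are on the other-lineage lists, so the choice of narrow cells limits their levels there.

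Cr2, at chromosome 1 from 195136811 to 195176716 on the minus strand, encodes the complement receptor CD21, which lowers the threshold for B cell activation. It had 331 UMIs (99.0 CPM) in all gated cells of the 10% Tet2-/- library and 719 UMIs (175 CPM) in the 10% Tet2+/+ library, a ratio of 0.56 (0.49 to 0.64). Its narrow-set count was 117 UMIs (169 CPM) and 294 UMIs (270 CPM), a ratio of 0.63 (0.50 to 0.78). Cr2 was thus lower in the 10% Tet2-/- library in both sets, beyond counting error. Of narrow cells, 44.2% (36.2 to 52.4) held a Cr2 UMI against 57.0% (50.5 to 63.3). Thinned to 1000 UMIs, 9.15% (5.09 to 14.9) of 153 cells did against 22.0% (16.9 to 27.8) of 241. Neutrophil-rich cells held one in 0.225% and 0.533%. The log2 ratio lay between -0.98 and -0.67 over the first list of other settings and between -0.80 and -0.61 over those added after the data were seen, and it passed 1.5-fold in each. Cells of the 10% Tet2-/- library with Xist alone against cells of the 10% Tet2+/+ library with Y-linked UMIs alone gave -0.80. In that setting sex and transplant differ together and cannot be told apart.

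Cd81 and Cd22, other receptors of the B cell surface, differed by less than Cr2 in the narrow set. Cd81, a tetraspanin, stood at 175 against 156 CPM in the narrow set. Cd22, an inhibitory receptor, stood at 149 against 189 CPM there. Tnfrsf13c, the receptor for the survival factor BAFF, was called in all gated cells (112 against 183 CPM) and was under the threshold in the narrow set (204 against 282 CPM, 0.72, 0.59 to 0.88). Of the 14 measured coreceptors and inhibitory receptors, 0 were higher and 2 lower in all gated cells, Cr2 and Fcrl1, with a median log2 ratio of -0.37. For narrow cells 1 of 14 was lower and the median was -0.15. The 6 B cell markers, which include the gate genes, had medians of -0.37 in all gated cells and -0.03 in the narrow set. The lower median in all gated cells was thus not particular to the coreceptors. Over all genes at 10 CPM or more the median was -0.02 in both sets, 1.82% were higher and 1.28% lower in all gated cells (7743 genes), and 3.54% were higher and 6.24% lower in the narrow set (7488 genes). List counts use that minimum of 10 CPM.

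Zfp36l2, which encodes a protein that speeds decay of AU-rich messenger RNAs, had 1141 UMIs (341 CPM) against 2434 UMIs (593 CPM). Narrow cells had 198 (286 CPM) against 609 (558 CPM), a ratio of 0.51 (0.43 to 0.60). It was also lower outside the B cells, at 344 against 554 CPM in all other kept cells. Ctse, the protease cathepsin E, stood at 14.4 against 55.1 CPM, at 9 against 59 UMIs in the narrow set (54.1 CPM in the latter, ratio 0.24, 0.10 to 0.49) and at 17.8 against 55.2 CPM in all other kept cells. Both ratios were therefore of like size in B cells and in the rest of the sort. Cr2 was at 2.43 and 4.41 CPM in those other cells, near 0.

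Several of the lowest genes of all gated cells are known from other cell types, and some had too few UMIs in the narrow set to compare. Cxcl9, an interferon-gamma induced chemokine, stood at 11.7 against 55.6 CPM, and had 3 against 6 UMIs in the narrow set (ratio 0.79, 0.13 to 3.69). In each library 1 cell held most Cxcl9 UMIs of the gated cells (61.5% and 61.0%). Hmox1, the haem oxygenase of macrophages, stood at 18.8 against 65.6 CPM, and had 2 against 3 UMIs in the narrow set. In the 10% Tet2+/+ library 67.3% of the Hmox1 UMIs of the gated cells lay in 1 cell. The gene was detected in 10.4% and 9.79% of gated cells. Camp, a granule peptide of neutrophils, stood at 81.1 against 134 CPM, and at 110 against 158 CPM in the narrow set (0.70, 0.52 to 0.92), where it stood beside a free RNA rich in neutrophil transcripts. The part of these cell types in the lower values was not tested. Mmp9 (69.1 against 125 CPM), Scimp (32.0 against 65.6), Sesn1 (61.3 against 110) and Hes1 (27.5 against 50.2) had narrow-set ratios of 0.77, 0.86, 0.75 and 0.87. Camp and Mmp9 are on the other-lineage lists, so the choice of narrow cells limits their levels there. Ccrl2, a chemerin-binding receptor, stood at 144 against 271 CPM, and in the narrow set had 9 against 38 UMIs (0.37, 0.16 to 0.78).

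Genes higher in the narrow set of the 10% Tet2-/- library were led by H2-Q7, a class Ib histocompatibility gene at chromosome 17 from 35439155 to 35443773. It stood at 347 against 174 CPM (240 and 190 UMIs, ratio 1.99, 1.64 to 2.42), and at 240 against 185 CPM in all gated cells. Its near-identical neighbours in the Q region can share reads, so its level is uncertain. The next were Tgif1 (127 against 66.9 CPM), Ing1 (80.9 against 41.3), P2rx4 (103 against 54.1) and Arfgap2 (83.7 against 45.8), with 88 or fewer UMIs each in the 10% Tet2-/- library. Rgs2, a brake on G protein signals, stood at 258 against 157 CPM (1.65, 1.33 to 2.05). With so few UMIs a 1.5-fold difference is near counting error for many genes of the narrow set.

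Lower in the narrow set were Egr1, an immediate early factor of antigen receptor signals, at 92.4 against 192 CPM (0.48, 0.36 to 0.64), and Dusp1, a phosphatase that switches off MAP kinases, at 173 against 287 CPM (0.60, 0.49 to 0.75). Crip1, a LIM protein enriched in memory lymphocytes, stood at 615 against 1050 CPM (0.59, 0.52 to 0.66) there, but at 1222 against 1266 CPM in all gated cells. Zfp207 (34.7 against 78.8 CPM), Sp3 (40.4 against 81.6) and Ccnd3, a cyclin of B cell proliferation (56.3 against 106), were also lower. Of 15 measured immediate early and dissociation genes 0 were higher and 3 lower in the narrow set, Egr1, Dusp1 and the heat shock gene Hspa1a, with a median of 0.03. Other members were higher in value without passing the threshold, such as Klf6 (648 against 457 CPM, 1.42, 1.25 to 1.62) and Jund (2810 against 2191 CPM, 1.28, 1.21 to 1.36). This list therefore did not move as one.

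Receptor signalling and lineage factors lay close together. Of 18 B cell receptor signalling genes, from Syk and Lyn to Ptpn6 and Inpp5d, 0 passed 1.5-fold in either set, with medians of -0.13 and -0.10. Of 20 lineage transcription factors 0 passed it in either set, with medians of -0.11 and 0.03. In the narrow set Pax5, which holds B cell identity, stood at 303 against 275 CPM, and Ebf1 at 1710 against 1942 CPM (0.88, 0.82 to 0.95). Klf2, which keeps lymphocytes quiescent and recirculating, stood at 2979 against 2220 CPM (1.34, 1.26 to 1.42). Among the 10 mature follicular genes Cr2 was lower, while Ccr7, the receptor that leads cells to lymph nodes, stood at 572 against 413 CPM (1.38, 1.21 to 1.59) and Cd55, a complement regulator, at 368 against 270 CPM (1.37, 1.15 to 1.62). Fcer2a stood at 399 against 330 CPM (1.21, 1.03 to 1.42). Follicular genes other than Cr2 thus stayed within 1.5-fold in the narrow set, with a median of 0.16.

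Activation and NF-kB genes were mostly within 1.5-fold. Of 13 measured activation and costimulation genes 0 passed it in the narrow set. Cd83, an early activation marker, stood at 758 against 530 CPM (1.43, 1.27 to 1.61), Cd86, a costimulator, at 101 against 68.8 CPM, and Cd69 at 741 against 732 CPM. Of 16 NF-kB genes 1 was higher and 0 lower in all gated cells, with a median of 0.17. Among narrow cells 2 were higher and 1 lower, with a median of -0.05. Rel, the c-Rel subunit that B cells need to divide, stood at 474 against 307 CPM (1.54, 1.32 to 1.80), and Traf1, a target gene, at 59.2 against 34.8 CPM. Nfkbia, which encodes the inhibitor IkBa, stood at 903 against 652 CPM in all gated cells but at 169 against 226 CPM (0.75, 0.59 to 0.93) in the narrow set, and its level in the other kept cells was 1736 against 1397 CPM. The direction for Nfkbia thus depended on the cell set.

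Class II presentation was level. Of 11 class II genes 0 passed 1.5-fold in either set, with medians of 0.03 and 0.11. Cd74, the invariant chain, stood at 17864 against 17427 CPM in the narrow set, and H2-Aa at 6678 against 5676 CPM (1.18, 1.13 to 1.22). Class I genes other than H2-Q7 also stayed within 1.5-fold in the narrow set, with B2m at 1346 against 1226 CPM and H2-D1 at 1617 against 1327 CPM. In T cells of the same libraries 8 of 11 class II genes were higher, with a median of 0.65, beside 2.52% of all genes. Dendritic cell markers (4 of 6 higher, median 0.80) and macrophage markers (3 of 8 higher, median 0.46) moved with them in the T cells, and their part was not tested. The difference between T and B cells was not tested.

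Interferon-stimulated genes had lower values in the 10% Tet2-/- library. Of 25 measured type I genes 0 were higher and 6 lower in all gated cells, with a median of -0.36, and in the narrow set 0 of 19 were higher and 5 lower, with a median of -0.35. Ifit3, an inhibitor of viral translation, stood at 9.57 against 28.0 CPM, with 1 against 21 UMIs in the narrow set. Bst2 (tetherin) stood at 28.9 against 60.5 CPM in the narrow set (0.48, 0.27 to 0.80), and Isg15, a ubiquitin-like modifier, at 9 against 31 UMIs (0.46, 0.19 to 0.98). The list was lower in T cells (13 of 26, median -0.61, beside 3.07% of all genes) and in neutrophil-rich cells (6 of 23, median -0.37, beside 1.04%) of the same libraries. The 10% Tet2-/- library thus had the lower level in each cell set measured. Of 11 interferon-gamma genes 3 were lower in all gated cells, Cxcl9, Cxcl10 and Irgm1, and 1 of 8 in the narrow set, with medians of -0.29 and -0.04. Most Cxcl9 UMIs of the gated cells lay in 1 cell of each library.

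Survival and cell cycle genes gave few calls. Of 11 survival genes 1 was higher and 1 lower in all gated cells. Bcl2a1b, whose paralogs share reads, stood at 306 against 184 CPM and in the narrow set at 139 against 131 CPM. Of 14 migration genes 0 passed 1.5-fold in either set, and Cxcr4, the receptor that holds cells in marrow, stood at 293 against 371 CPM (0.79, 0.66 to 0.94) in the narrow set. Among genes of DNA methylation and its removal, 0 of 8 passed it in all gated cells and 1 of 7 was higher in the narrow set, the glycosylase gene Tdg with 19 against 15 UMIs. In all gated cells the list had Tet3, a paralog of Tet2, at 46.7 against 64.8 CPM and Dnmt1, the maintenance methyltransferase, at 30.2 against 35.8 CPM. Of 12 S phase and 12 G2/M genes 0 passed it in all gated cells, and in the narrow set 0 of 9 S phase genes did and 1 of 3 G2/M genes was lower, Mki67 with 0 against 11 UMIs. For B-1 and marginal zone genes 0 of 8 passed it in all gated cells, with a median of 0.24, and 0 of 5 were higher and 1 lower in the narrow set, with a median of -0.31. Cytokine genes had medians of 0.15 and -0.02, with Il1b at 2821 against 2652 CPM in all gated cells and 270 against 426 CPM in the narrow set. Il1b stood at 6474 and 7012 CPM in the other kept cells, and the part of free RNA in the narrow set was not tested.

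**Figure D5:**
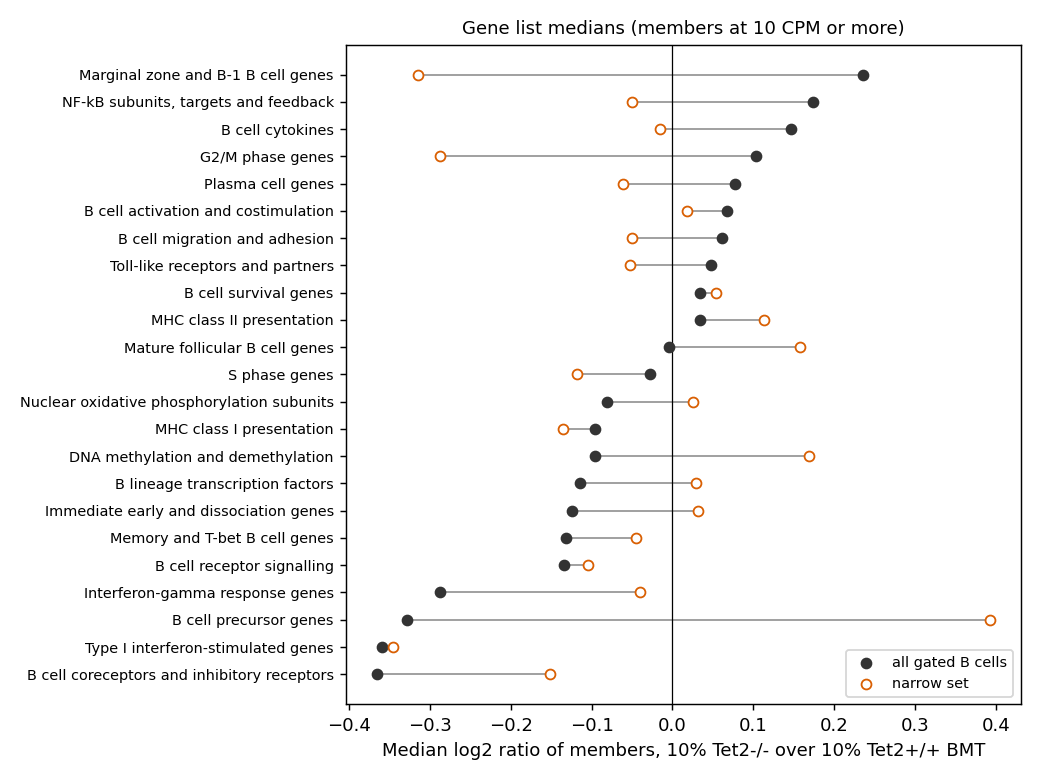
Median log2 ratio of 10% Tet2-/- over 10% Tet2+/+ BMT for each gene list, over members at 10 CPM or more, in all gated B cells (dark) and in the narrow set (open). Most lists lie within 0.2 of 0 in the narrow set, and the interferon-stimulated list is near -0.35 in both. Several lists change sign between the sets, long ones such as lineage factors and NF-kB genes as well as short ones. Among the short ones are marginal zone genes and the 5 measured precursor genes (-0.33 in all gated cells, 0.39 in the narrow set).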

How the data were processed

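Single-cell 3' RNA libraries were made from sorted gingival cells, 1 library per group. The authors deposited raw UMI counts per gene and cell barcode, made with Cell Ranger 6.1.2 per the submitters' processing notes, on mm10, while version 4 stands in the file headers. No deposited cell annotation was used. Barcodes were kept and gated as the results state, counts were summed per library, and levels are CPM with exact 95% Poisson intervals, ratios with conditional binomial intervals and shares with Clopper-Pearson intervals, while differences of shares have Newcombe intervals and a count of 0 has the limit of 3 counts. All cover counting error only, and with 1 library per group no p-value was computed. No doublet caller was run and no doublet was removed. Many results are also given for a narrow set chosen after the data were seen. The members, gene lists and tests were chosen with earlier results of these data known. Named genes are the 12 highest and 12 lowest by log2 ratio (pseudocount 10 CPM) past 1.5-fold in all gated cells, leaving out antigen receptor, globin, Y-linked, ribosomal and mitochondrial genes and Xist, up to 4 members per gene list with the largest ratios, the gate, marker, surrogate light chain and immunoglobulin constant genes, and the 20 genes highest in B cells. Other genes, including those highest or lowest in the narrow set and further list members, were named after their values were seen. The comparison was tried on simulated Poisson counts drawn from 1 summed profile. These hold no mixed barcodes, no genes concentrated in single cells and no spread over animals, so the trial does not cover those. Python 3.11.15, numpy 2.4.6, scipy 1.17.1, pandas 2.3.3 and matplotlib 3.10.9 were used. Positions are on mm10. Alternatives covered the gate, mitochondrial limit, depth, pseudocount and eligibility.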

Additional observations from a re-analysis of the deposited data

How the results depend on the processing

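No paired analysis was possible because each group is 1 library and no test was made. Log2 ratios are of 10% Tet2-/- over 10% Tet2+/+ BMT. A mitochondrial limit of 5% left 194 and 252 B cells. With it the difference in B cell share was -0.18 points against -0.86. The lambda difference was -7.47 points against -3.84, and 43 genes were lower against 27. Genes higher numbered 68 in all gated cells, 110 when eligible at 10 CPM, 45 at 100 CPM, 42 with the mean of per-cell CPM, 33 thinned to 1000 UMIs, 24 in the narrow set, 21 there without Vpreb3-high cells and 22 in cells under 8000 UMIs. Genes lower numbered 72 when eligible at 10 CPM, 12 at 100 CPM and 44 with stricter S100a8, S100a9 and C1q limits. They numbered 69 with other-lineage markers under 0.3% and 51 under 8000 UMIs. Xist-carrying cells of the 10% Tet2-/- library against Y-carrying cells of the 10% Tet2+/+ library gave 51. Higher genes made up 71.6% of calls in all gated cells and 39.3% in the narrow set.

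Some log2 ratios past 1.5-fold in all gated cells changed sign. With a gate of 8 UMIs Mpo was -0.28, without Cd3 UMIs Ccl17 was -0.36, and with stricter S100 and C1q limits Cxcl9 was 0.26. Without the 8% of cells with most UMIs, Ctsg was -0.36, Igkc -0.38, Mpo -0.39, Ms4a3 -0.012 and Slpi -0.36. Without Jchain cells Igkc was -0.28 and Slpi -0.28. In the narrow set Ctsg was -0.35, Cxcl3 -0.35, Hmox1 0.015, Ighg2b -0.44, Iglc1 0.47, Mpo -0.49, Retnla -0.084 and Slpi -0.21. Without Vpreb3-high cells these were Ctsg -0.50, Cxcl3 -0.34, Hmox1 0.024, Ighg2b -0.53, Iglc1 0.48, Mpo -0.48, Retnla -0.070 and Slpi -0.20, with Igkc -0.044. With other-lineage markers under 0.3% the monocyte marker median was -0.033, Ccl22 -0.0045, Ctsg -0.36, Cxcl3 -0.16, Cxcl9 0.86, Il1rn -0.00060, Mpo -0.41 and Retnla -0.57. Under 8000 UMIs Ctsg was -0.36, Hmox1 0.65, Igkc -0.010, Iglc1 0.47, Mpo -0.39, Retnla -0.43 and Slpi -0.26. The cause was not tested. Of 2323 values for single genes over the alternatives, 1766 moved by less than their counting interval and 516 by more. Another 41 changed sign, counted only for genes past 1.5-fold in all gated cells. Genes under that threshold also changed sign, such as Nfkbia (0.46 to as low as -0.41), and are not in the 41. With 692553 and 1090800 UMIs, the narrow set limits what can be seen of genes at low levels.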

Other observations

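Among cells with at least 10 Igkc UMIs and no Iglc1 UMI, Iglc2 was detected in 174 of 193 (90.2%, 85.1 to 94.0) and 280 of 304 (92.1%, 88.5 to 94.9), with a median of 4 UMIs in each library. Iglc3 was in 86.0% and 85.5% of the same cells. Neutrophil-rich cells held Iglc2 in 1.01% and 1.46% and Iglc3 in 0.472% and 1.52%. A kappa cell thus often held a few UMIs of these lambda constant genes, which are near-identical to each other and can share reads. Heavy chain variable genes with 2 or more UMIs were seen in 42 and 55 cells, led by 28 and 39 different genes. The most frequent, Ighv1-64 and Ighv6-3, led in 4 cells each, so no single variable gene dominated. Cd93, a receptor of immature B cells that myeloid cells share, was in 14.2% and 7.87% of gated cells and in 9.09% and 2.89% of the narrow set, and in 15.2% and 10.5% of neutrophil-rich cells.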
